A study of Mus musculus with 3 samples.

Results

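The genes that write, erase and read histone acetylation were described in 5TGM1.BRE cells, a mouse myeloma line that resists bortezomib and engrafts in mice. Members were taken by symbol from the first column of the count tables. They were the zinc-dependent deacetylases Hdac1 to Hdac11, the sirtuins Sirt1 to Sirt7, genes named Kat followed by a number, bromodomain genes named Brd followed by a number or t, and Bptf, Crebbp, Ep300, Baz1a, Baz1b, Baz2a and Baz2b. This gave 40 members of 24467 gene symbols. Polyadenylated RNA of 3 samples was sequenced, all from 1 group: engraftable resistant cells that had come from the bone marrow of C57BL/KaLwRij mice, were cultured in 10 nM bortezomib and were without drug for at least 72 h before RNA was taken from 10000000 cells. Bortezomib is a proteasome inhibitor used to treat myeloma. All 3 titles call the cells resistant, but the cell type label of replicate 1, unlike those of replicates 2 and 3, does not mention culture in the drug. The parental drug-sensitive line was not analysed here, so the values are levels within resistant cells and no change with resistance is given. Whether the 3 samples were separate cultures is not stated in the labels, so the spread between them may be technical.

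Acetylation of lysines on histone tails weakens their hold on DNA and marks active promoters and enhancers. Acetyltransferases (the Kat genes, Crebbp and Ep300) add the group from acetyl-CoA, zinc-dependent deacetylases and NAD-dependent sirtuins remove it, and bromodomain proteins bind acetylated lysine and bring other factors to it. In myeloma the pathway is known as a drug target: deacetylase inhibitors have been combined with bortezomib, and inhibitors of the BET (bromodomain and extra-terminal) readers lower Myc transcription.

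Library totals were 62303493, 45705994 and 59402218 counts for replicates 1, 2 and 3. Of 8 plasma cell markers, 7 were at 1 CPM (count per 1000000 counts of the library) or more in all 3 libraries, and the exception was Tnfrsf17, with 41, 19 and 40 counts. Summed markers of T and NK cells lay between 0.175 and 0.369 CPM and those of myeloid cells between 0.328 and 0.623 CPM, with Cd3e, S100a8 and S100a9 at 0 counts. Summed B cell markers lay between 4.35 and 9.60 CPM, erythroid and megakaryocyte markers between 15.2 and 17.6 CPM, and stromal and endothelial markers between 6.15 and 6.83 CPM. Replicate 3 stood apart from the other 2 libraries across 51.6% of the genes tested, and results that rest on it are given with and without it.

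To show the ends of the range of levels, the sequence from 250 to 51 bases before the start is printed for Hdac2, Hdac9, Brdt and Sirt5. Hdac2 had the highest level, and Hdac9 the lowest with any count, by CPM per kilobase of union exons. By CPM alone Hdac11 was the lowest with any count. Per kilobase of the longest transcript it was Brdt, the germline reader. Sirt5 had no count. The sequences are those of RefSeq (build GRCm38.p6), 5′ to 3′ on the strand of the gene, with CpG dinucleotides in capitals. Hdac2 lies at chr10:36974294-36974493 on the plus strand, Hdac9 has one window at chr12:34917146-34917345 and another at chr12:34528940-34529139 on the minus strand, Brdt lies at chr5:107330944-107331143 and Sirt5 at chr13:43365285-43365484, both on the plus strand.
Hdac2: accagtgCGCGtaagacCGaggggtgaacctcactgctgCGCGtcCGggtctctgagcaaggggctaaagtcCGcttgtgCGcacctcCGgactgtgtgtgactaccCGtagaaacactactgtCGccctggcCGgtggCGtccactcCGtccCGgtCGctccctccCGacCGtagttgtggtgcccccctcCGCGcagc
Hdac9, upstream start: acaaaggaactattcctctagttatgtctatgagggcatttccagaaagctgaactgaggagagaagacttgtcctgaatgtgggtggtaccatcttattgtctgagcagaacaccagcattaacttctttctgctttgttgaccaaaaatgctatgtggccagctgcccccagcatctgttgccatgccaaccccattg
Hdac9, downstream start: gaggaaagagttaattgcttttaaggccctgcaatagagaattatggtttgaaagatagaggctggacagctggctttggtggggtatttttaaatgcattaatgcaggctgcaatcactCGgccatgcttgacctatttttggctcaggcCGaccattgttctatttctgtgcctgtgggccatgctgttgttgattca
Brdt: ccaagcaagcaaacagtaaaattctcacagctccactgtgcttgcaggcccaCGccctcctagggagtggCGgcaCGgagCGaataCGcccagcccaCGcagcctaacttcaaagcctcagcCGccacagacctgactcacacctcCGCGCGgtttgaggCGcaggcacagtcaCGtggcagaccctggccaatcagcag
Sirt5: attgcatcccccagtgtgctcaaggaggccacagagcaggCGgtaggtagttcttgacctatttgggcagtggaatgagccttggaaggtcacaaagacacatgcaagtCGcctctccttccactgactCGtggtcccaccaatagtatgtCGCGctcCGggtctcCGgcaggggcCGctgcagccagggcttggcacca

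The Hdac2 window held 20 CpG dinucleotides, the Brdt window 12 and the Sirt5 window 8, while the Hdac9 windows held 0 and 2. RefSeq windows were matched for 33 of the 40 members, 46 windows in all because some genes have several starts. Their median was 14 CpG dinucleotides per 200 bases, against 4 over all 32851 windows of the table, those of untranscribed genes included. By the window with the most CpG dinucleotides, 22 of the 33 members held at least 10, close to the 63.2% of 8599 genes that passed the filter on low counts. The GC box, searched as GGGCGG on both strands, was in 22 of the 46 windows (47.8%), against 24.6% of all windows. The CCAAT box (CCAAT on both strands, which shares no full match with the GC box) was in 34.8%, against 28.4% of all windows. For these boxes no share over the genes that passed the filter was taken. The differences from all windows are therefore not read as a trait of the members. The windows of Crebbp and Sirt1 each held 32 CpG dinucleotides, the highest count among the members, and that of Ep300 held 21. Over the 33 members, the Spearman correlation between a gene's highest CpG count and its level per kilobase was 0.15, and over 11946 genes with a count it was 0.32. These are descriptions across genes of the same libraries, and the CpG-poor windows belonged to members as different in level as Hdac9 and Kat2a.

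Nearly all members were transcribed. Of the 40 members, 39 were at 1 CPM or more in all 3 libraries, against 40.9% of all genes in the tables, and Sirt5 was the exception. To compare genes, levels were divided by the union exon length in kilobases (CPM per kilobase). On this scale the median of the 39 members with a count was 7.85, close to the 7.32 of the 11308 genes that passed the filter on low counts, and 21 of the 40 members were above that value. The family thus spread over the range of expressed genes. Between the libraries, the coefficient of variation of the members' CPM had a median of 6.57%, beside 7.95% over the genes that passed the filter. It ran from 0.714% (Kat8) to 16.9% (Kat6a). The value of Kat8 was below what counting error alone gives at its counts. Without replicate 3, 39 members were still at the limit. The levels without that library, computed after the data were seen, moved by between -6.55% and 9.74%, and no rank moved by more than 5 places.

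**Figure D1:**
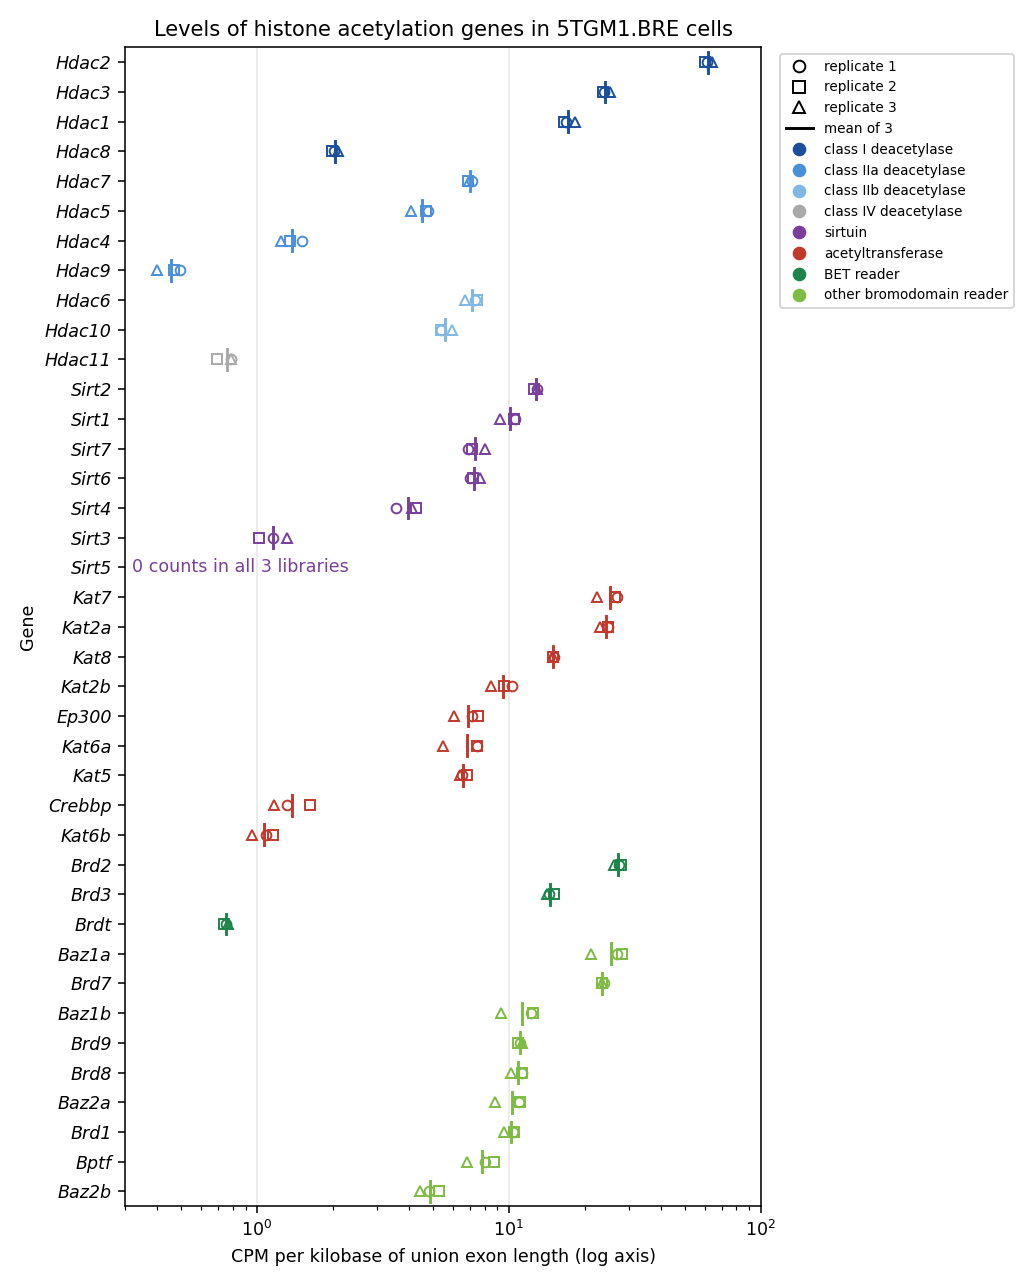
CPM per kilobase of union exon length (log axis) of the members, grouped by class, with 1 symbol per replicate and a bar at the mean. Hdac2 stood highest at a mean of 61.9, Hdac9 was the lowest with any count at 0.455, and Sirt5 had 0 counts. With the longest transcript as the length, Brdt was the lowest with any count at 0.813, beside Hdac9 at 0.841.

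The class I deacetylases, nuclear enzymes that act in the NuRD, Sin3, CoREST and NCoR complexes, held most of the zinc-dependent deacetylase transcripts. Hdac2, at chr10:36974544-37001889 on the plus strand (GRCm38), had 17064, 12322 and 17087 counts in replicates 1, 2 and 3, which is 61.2, 60.3 and 64.3 CPM per kilobase. The 3 libraries lay within a narrow band, and the gene was the highest member by CPM and per kilobase, at percentile 94.2 of all genes with a count and a length. Hdac3, the enzyme of the NCoR corepressor complex, was at 23.8, 23.6 and 25.1 CPM per kilobase. Hdac1, the close relative of Hdac2, was at 16.8, 16.5 and 18.3 CPM per kilobase, lower than Hdac3 in every library. Hdac8, the class member that works outside these complexes and is known to deacetylate cohesin, was at 2.03, 1.98 and 2.10 CPM per kilobase, far below the other class members.

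As a share of the summed CPM per kilobase of Hdac1 to Hdac11, Hdac2 made up 46.9 ± 0.42% (SD, n = 3), Hdac3 18.3 ± 0.17% and Hdac1 13.0 ± 0.37%. With the longest transcript as the length, the mean shares were 46.9% for Hdac2, 15.0% for Hdac3 and 16.0% for Hdac1, so the order of Hdac1 and Hdac3 depends on the length taken. The log2 ratio of Hdac1 to Hdac2 was -1.85 ± 0.028 per kilobase (SD, n = 3), a 3.60-fold lower level of Hdac1 found in 3 of 3 libraries. Hdac1 has annotated near-identical copies, the processed pseudogene Gm10093 with 99.4% identity over 1444 bases and another with 96.3% identity over 1450 bases of its longest transcript. Neither copy has a row in the tables, and the handling of reads shared with them is not stated, which makes the level of Hdac1 uncertain.

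**Figure D2:**
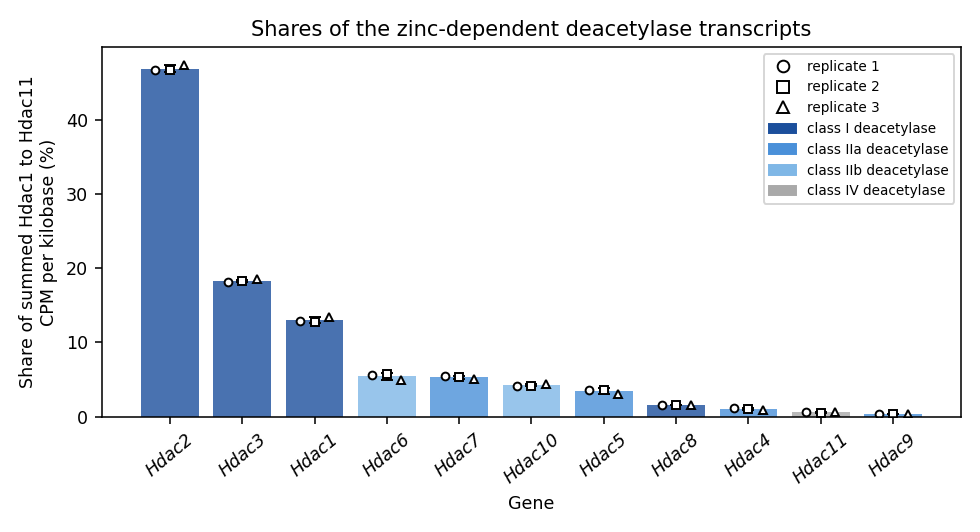
Share of each gene in the summed CPM per kilobase of Hdac1 to Hdac11, as the mean of 3 libraries (bars, with the SD as error bars) and per replicate (symbols). Hdac2, Hdac3 and Hdac1 came to 46.9, 18.3 and 13.0%, and no other gene exceeded 5.43%.

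Class IIa deacetylases, which shuttle between nucleus and cytoplasm and have little catalytic activity of their own, were lower. Hdac7 led the class at 7.15, 6.87 and 6.92 CPM per kilobase, followed by Hdac5 at 4.77, 4.69 and 4.08. Hdac4 was at 1.51, 1.36 and 1.25 CPM per kilobase, and 22.4% of its exon bases overlap an opposite-strand noncoding gene that is not listed in the tables. Hdac9 was at 0.495, 0.470 and 0.401 CPM per kilobase, with 452, 315 and 349 counts. The ranges of these 4 genes did not overlap. The log2 ratio of class I to class IIa genes, each summed per kilobase, was 2.98 ± 0.117 (SD, n = 3), or 7.91-fold, and it was 3.86-fold without lengths.

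Hdac6, a class IIb deacetylase of the cytoplasm that acts on tubulin and carries ubiquitinated protein aggregates to the aggresome, is studied in myeloma beside the proteasome. It was at 7.36, 7.45 and 6.66 CPM per kilobase in replicates 1, 2 and 3. Its class partner Hdac10, a polyamine deacetylase, was at 5.36, 5.38 and 5.94 CPM per kilobase, below Hdac6 in every library. The log2 ratio of Hdac6 to Hdac10 was 0.36 ± 0.172 (SD, n = 3), and it was 0.46, 0.47 and 0.17 in the 3 libraries. The difference was 1.29-fold per kilobase and 2.22-fold without lengths. Hdac11, the only class IV gene, was at 0.788, 0.693 and 0.792 CPM per kilobase with 189, 122 and 181 counts, near the bottom of the range. Of its exon bases, 594 (15.4%) overlap the opposite-strand gene Gm44002 and 96 overlap Gm14573. Neither gene is among the counted symbols, so their part in the Hdac11 counts is unknown.

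Of the sirtuins, NAD-dependent enzymes named for their yeast relative Sir2, 6 of 7 were detected. Sirt2, mostly cytoplasmic, was at 12.9, 12.6 and 12.9 CPM per kilobase. Sirt1, a nuclear enzyme that also deacetylates p53, was at 10.5, 10.5 and 9.24 CPM per kilobase. The nuclear genes Sirt6, which acts at chromatin on histone H3, and Sirt7, which is enriched in the nucleolus, had nearly equal means of 7.30 ± 0.352 and 7.35 ± 0.639 CPM per kilobase (SD, n = 3 each), with overlapping ranges. Of the mitochondrial sirtuins, Sirt4 was at 3.55, 4.29 and 4.12 CPM per kilobase and Sirt3 at 1.16, 1.01 and 1.31. Exons of Sirt3 share 342 and 418 bases with the opposite-strand genes Psmd13 and Ric8a, so some of its 430, 277 and 466 counts may belong to them.

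Sirt5, the mitochondrial desuccinylase and demalonylase, had 0 counts in all 3 libraries. A count of 0 allows up to 3 counts, which is 0.0482, 0.0656 and 0.0505 CPM in replicates 1, 2 and 3 and 0.0179 CPM over all 167411705 counts. The gene lies at chr13:43365496-43395203 on the plus strand (GRCm38). Nol7, which starts 3187 bases beyond its end, was at 246 ± 24.8 CPM and the next gene, Ranbp9, at 130.0 ± 8.14 CPM (SD, n = 3 each). On the other side, Gfod1, 61324 bases away, had 0, 1 and 3 counts, and Tbc1d7, 193995 bases away, was at 28.6 ± 0.682 CPM (SD, n = 3). Sirt5 was thus below detection next to a highly transcribed gene on one side and a nearly silent one on the other. The longest alignment to any partial copy of at least 95% identity covered 34.8% of the longest Sirt5 transcript. The combined coverage by all partial copies was not computed. Whether the authors' annotation or counting affected the value was not tested. The nuclear genes Sirt1, Sirt6 and Sirt7 summed to 24.7 ± 0.322 CPM per kilobase (SD, n = 3). The mitochondrial genes Sirt3, Sirt4 and Sirt5 summed to 5.15 ± 0.386 (SD, n = 3). The log2 ratio of the 2 sums was 2.27 ± 0.092. It takes Sirt5 as 0 and all counts of Sirt3 as its own, and the SD does not cover these uncertainties.

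Among the acetyltransferases, Kat7, the catalytic subunit of the HBO1 complex linked to replication origins, was at 26.9, 26.3 and 22.3 CPM per kilobase. Kat2a, the GCN5 enzyme of the SAGA and ATAC complexes, was at 24.8, 24.8 and 23.0, and its paralog Kat2b, or PCAF, at 10.3, 9.56 and 8.47. Kat2a exceeded Kat2b in every library, with a log2 ratio of 1.36 ± 0.086 (SD, n = 3), or 2.57-fold. A processed pseudogene of Kat2b, with 95.1% identity over 53.3% of its longest transcript, has no row in the tables. Kat8, the MOF enzyme that acetylates lysine 16 of histone H4, was at 15.1, 14.9 and 15.0 CPM per kilobase. It had the lowest coefficient of variation of the members with a count. With 2724, 1970 and 2579 counts, this value was below what counting error alone gives, so it does not measure evenness. Kat5, or TIP60, of the NuA4 complex, was at 6.51, 6.83 and 6.40 CPM per kilobase, and 426 bases of its exons (12.1%) overlap Rnaseh2c on the opposite strand.

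Crebbp and Ep300, paralogous coactivators that acetylate lysines 18 and 27 of histone H3 at enhancers, differed widely in level. Crebbp, at chr16:4081328-4213997 on the minus strand, had 1114, 1004 and 942 counts, or 1.32, 1.62 and 1.17 CPM per kilobase. Ep300, at chr15:81585351-81652077 on the plus strand, had 6367, 4896 and 5133 counts, or 7.16, 7.51 and 6.05 CPM per kilobase. The log2 ratio of Crebbp to Ep300 was -2.34 ± 0.118 (SD, n = 3), a 5.06-fold lower level of Crebbp in 3 of 3 libraries. With the longest transcript as the length it was 6.03-fold and without lengths 5.34-fold. No near-identical copy or exon overlap with a gene of the tables was found for either gene. Crebbp was at percentile 44.6 of genes with a count and Ep300 at percentile 64.1.

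The MOZ and MORF enzymes, Kat6a and Kat6b, were also unequal. Kat6a, at chr8:22859535-22943259 on the plus strand, was at 7.50, 7.46 and 5.49 CPM per kilobase, and Kat6b at 1.09, 1.15 and 0.953. Their log2 ratio was 2.67 ± 0.132 (SD, n = 3), a 6.35-fold difference that came to 2.93-fold when the longest transcript was used instead and 3.47-fold without lengths. The union exon length of Kat6b, 16826 bases, is more than its longest transcript of 7699 bases, and the 2 lengths of Kat6a are 9180 and 9113 bases. The direction was the same for both lengths.

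The BET readers, which hold paired bromodomains and recruit elongation factors to acetylated chromatin, were led by Brd2. Brd2 was at 27.3, 27.9 and 26.2 CPM per kilobase, the second highest member, and 405 and 360 bases of its exons overlap opposite-strand genes, of which H2-DMa had 48, 36 and 48 counts. Brd3 was at 14.4, 15.1 and 14.2 CPM per kilobase. The ranges of these genes did not overlap. The log2 ratio of Brd3 to Brd2 was -0.90 ± 0.024 (SD, n = 3), a 1.86-fold lower level of Brd3 in 3 of 3 libraries.

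Brdt, the BET gene known for its role in spermatogenesis in mice, was detected at a low level. It had 241, 173 and 233 counts, or 3.87, 3.79 and 3.92 CPM, and 0.756, 0.740 and 0.767 CPM per kilobase. Its coefficient of variation was 1.79%, below what counting error alone gives at these counts, so it does not measure evenness. The level was far above the limit of 0.0179 CPM set by a count of 0. Brdt lies at chr5:107331159-107387058 on the plus strand, with no exon overlap with another annotated gene. Per kilobase its mean of 0.754 ± 0.014 (SD, n = 3) stood beside that of Hdac11, 0.758 ± 0.056, near the bottom of the family.

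Of the other bromodomain readers, Baz1a (ACF1) and Brd7 were highest. Baz1a, the large subunit of the ACF nucleosome-spacing remodeller, was at 26.7, 28.1 and 21.3 CPM per kilobase. Brd7, of the PBAF complex, was at 23.8, 23.3 and 23.3, and Brd9, of the noncanonical BAF complex, at 11.1, 10.9 and 11.3. The log2 ratio of Brd9 to Brd7 was -1.09 ± 0.029 (SD, n = 3), the same direction in each library. Brd8, a subunit of the NuA4 complex, had a mean of 10.9 ± 0.616 CPM per kilobase, Brd1, a scaffold of the HBO1 complex, 10.2 ± 0.504, and Bptf, the histone reader of the NURF remodeller, 7.85 ± 0.969 (SD, n = 3 each).

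The remaining Baz genes were Baz1b, or WSTF, at 12.2, 12.5 and 9.28 CPM per kilobase, Baz2a, the TIP5 subunit of the nucleolar remodeller NoRC, at 11.0, 11.0 and 8.81, and Baz2b at 4.81, 5.29 and 4.44. Baz1b was 2.25-fold below Baz1a per kilobase and Baz2a 2.12-fold above Baz2b. With the longest transcript as the length these differences shrank to 1.23-fold and 1.21-fold, so their size depends on the exons counted as part of each gene. An exact sign-flip permutation test, two-sided and over n = 3 libraries, gave p = 0.25 for each of the 13 ratios (0.25 after Benjamini-Hochberg adjustment), the smallest p that 3 libraries allow.

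**Figure D3:**
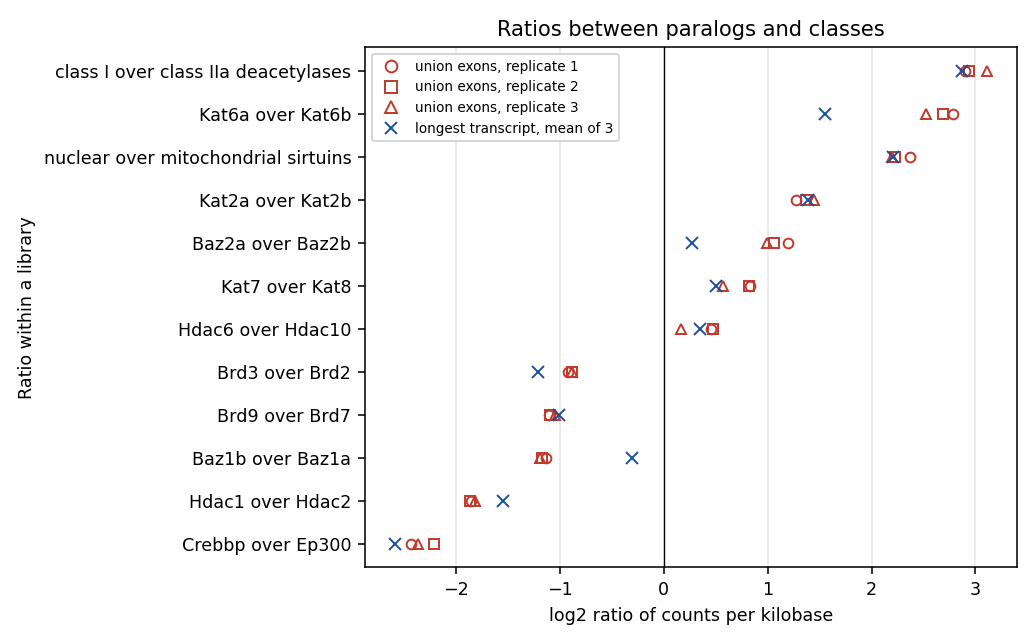
Log2 ratios of counts per kilobase between paralogs and classes, per replicate with union exon lengths (red symbols) and as the mean of 3 libraries with the longest transcript (blue crosses). Crebbp over Ep300 lay at -2.34 and class I over class IIa deacetylases at 2.98, and each ratio had 1 sign in all 3 libraries.

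The libraries were then set against each other to describe how they differed. Replicate 1 against the other 2 libraries and replicate 2 against the other 2 gave no called member by edgeR's quasi-likelihood test with Benjamini-Hochberg adjustment (0 at an unadjusted p under 0.05, and 0 by DESeq2), where 0.0796% and 0.0531% of all genes tested were called. In replicate 3 against the other 2 libraries, 6 of 39 members were higher and 17 were lower at an adjusted p under 0.05 by the same test. Over all 11308 genes tested, 24.8% were called higher and 26.8% lower. The test compares single libraries and not conditions, and has 1 residual degree of freedom. For replicates 1 and 2, the other 2 libraries include replicate 3, and the SE of the log2 fold change was larger. For Kat6a it was 0.19 and 0.21 for replicates 1 and 2, against 0.04 for replicate 3. The absence of calls for replicates 1 and 2 therefore does not measure how steady the members were.

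The members that were higher in replicate 3 were Hdac1, Hdac2, Hdac3, Hdac10, Sirt3 and Sirt7, a smaller share of the 39 members than the 24.8% of all genes. Sirt3 showed the largest rise, with 7.84 CPM in replicate 3 against 6.90 and 6.06 CPM in replicates 1 and 2 (log2 fold change 0.30, SE 0.10, adjusted p = 0.00912 by edgeR). Sirt7 followed with 41.5 CPM in replicate 3 against 35.3 and 36.7 CPM (log2 fold change 0.24, SE 0.06, adjusted p = 0.000218 by edgeR). Hdac10 was at 20.1 CPM in replicate 3 against 18.1 and 18.2 CPM (log2 fold change 0.18, SE 0.07, adjusted p = 0.0277 by edgeR). For each of these 3 genes replicate 3 lay above both other libraries. With scaling by library totals alone, Hdac1, Sirt3 and Sirt7 were called higher and Hdac2, Hdac3 and Hdac10 were not, and 20 members were lower, where 19.7% of all genes were higher and 29.7% lower. Sirt7 shares 124 exon bases with Mafg on the same strand.

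Of the 9 acetyltransferases, 6 were lower in replicate 3: Crebbp, Ep300, Kat2b, Kat6a, Kat6b and Kat7. Of the 9 readers outside the BET group, 7 were lower, in a library where 26.8% of all genes tested were lower. With the length trend removed, the median log2 fold change of the acetyltransferases went from -0.20 to -0.07. That of these readers went from -0.15 to 0.07. Hdac4, Hdac5 and Sirt1 were lower as well before that removal. Kat6a fell most, to 50.4 CPM in replicate 3 against 68.8 and 68.4 CPM in replicates 1 and 2 (log2 fold change -0.42, SE 0.04, adjusted p = 9.73e-20 by edgeR). Baz1b was at 126.8 CPM in replicate 3 against 166.6 and 170.2 CPM (log2 fold change -0.38, SE 0.04, adjusted p = 6.75e-19 by edgeR), and Baz1a at 152.2 CPM against 191.5 and 201.0 CPM (log2 fold change -0.34, SE 0.04, adjusted p = 5.33e-15 by edgeR). For each of these 3 genes replicate 3 lay below both other libraries, which were close to each other.

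**Figure D4:**
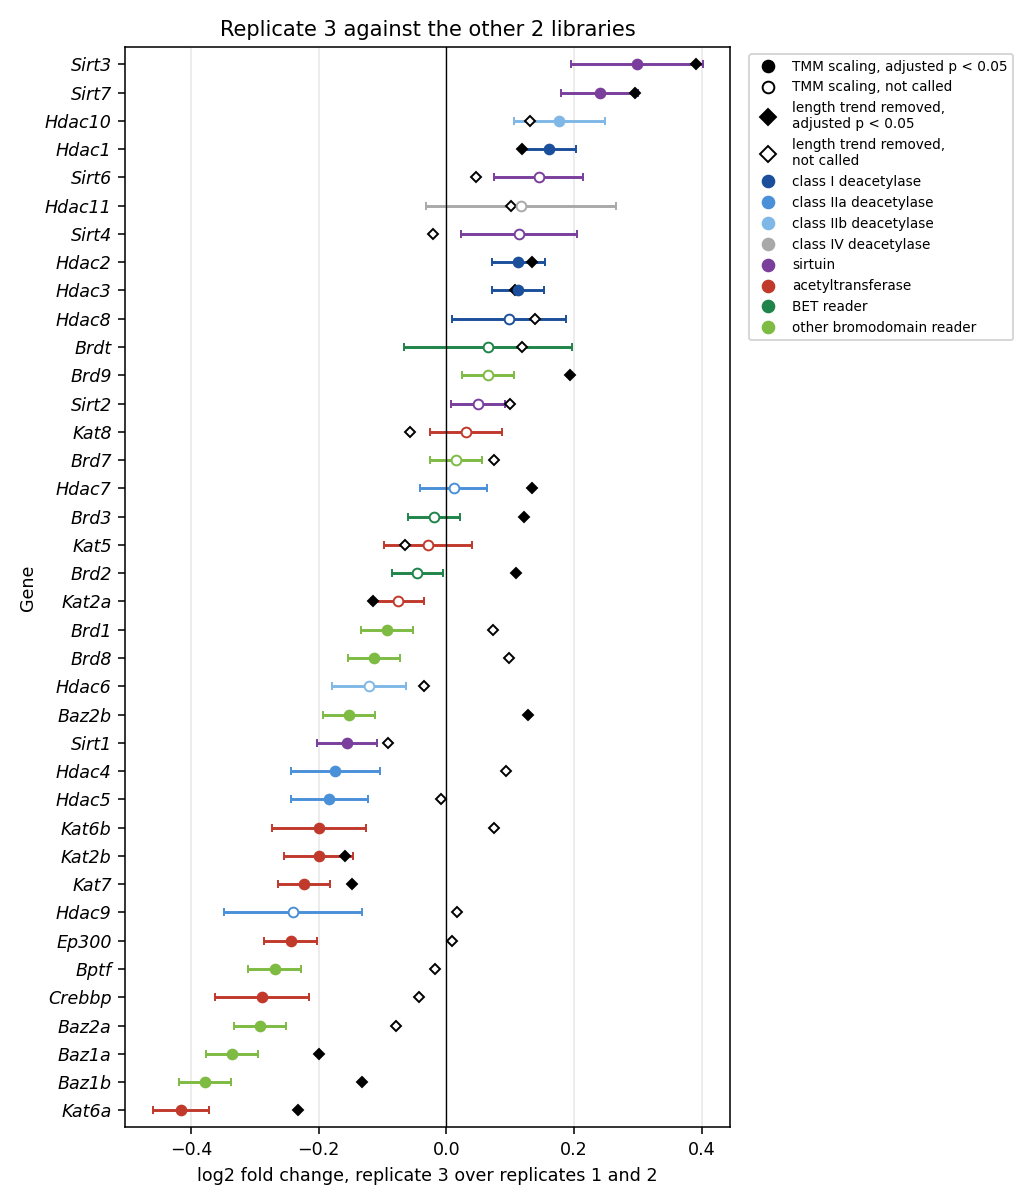
Log2 fold change of replicate 3 over replicates 1 and 2 for members tested, with the SE as bars (circles, coloured by class), and the value with the length trend removed (diamonds). Filled symbols had an adjusted p under 0.05. Kat6a lay lowest at -0.42 and Sirt3 highest at 0.30 before the trend was removed.

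Transcript length moved with this difference. Over the 39 members the Spearman correlation between union exon length and the log2 fold change of replicate 3 was -0.72, and over 11235 genes with a length it was -0.59, points that share the same 3 libraries. The median union exon length was 4264 bases for the class I deacetylases and 10633 bases for the readers outside the BET group. The median log2 fold change of class I was 0.11 before and 0.13 after the loess trend on length was removed. For these readers it was -0.15 before and 0.07 after. With the loess trend on length removed, 10 members were higher and 6 lower in replicate 3, while 16.3% of all genes were called higher and 16.0% lower. The readers Baz2b, Brd2, Brd3 and Brd9 were then among those called higher. Of the members called before, some were called again in the same direction, Baz2b in the opposite direction and others no longer. The matching shares over all genes called are not given here, so no trait of the members is read from this.

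The members called in the same direction both with and without the length trend were Hdac1, Hdac2, Hdac3, Sirt3 and Sirt7, which were higher in replicate 3, and Baz1a, Baz1b, Kat2b, Kat6a and Kat7, which were lower. Kat6a was at a log2 fold change of -0.23 with the trend removed (adjusted p = 0.000199 by edgeR) and Sirt7 at 0.29 (adjusted p = 0.000453 by edgeR). Crebbp, at -0.29 before and -0.04 after removal, and Ep300, at -0.24 before and 0.01 after, were no longer called (adjusted p = 0.746 and 0.894 by edgeR). DESeq2, without removal of the trend, called 1 member higher, Sirt7, and 7 lower, where 12.2% of all genes were called higher and 16.0% lower. The part of RNA quality or library preparation in the difference was not tested.

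**Figure D5:**
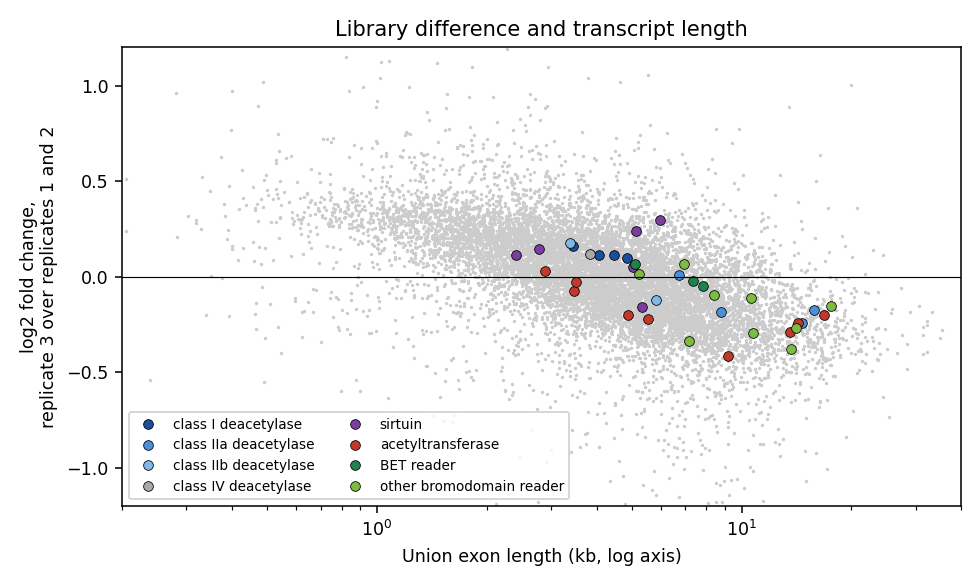
Log2 fold change of replicate 3 over replicates 1 and 2 against union exon length (log axis), for all genes tested (grey; values beyond 1.2 lie outside the axis) and for the members (coloured by class). Long members such as Baz1b, at 13667 bases and -0.38, lay low. Short members lay on both sides of 0. Hdac1, at 3445 bases, was at 0.16, and Kat2a, at 3480 bases, was at -0.08.

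The partners of these enzymes were transcribed as well. Of 36 listed subunits of deacetylase complexes found in the tables, 35 were at 1 CPM or more in all libraries, with a median of 9.99 CPM per kilobase. The highest were Rbbp7, a histone chaperone shared by NuRD and Sin3, at 161 ± 4.62, Mta2, a NuRD scaffold, at 86.4 ± 4.41, and Sap30, of the Sin3 complex, at 74.3 ± 6.31 CPM per kilobase (SD, n = 3 each). All 41 listed subunits of acetyltransferase complexes were at the limit or above, led by the helicases Ruvbl2 at 68.0 ± 1.84 and Ruvbl1 at 54.6 ± 0.785 and by the actin-related Actl6a at 32.6 ± 0.963 CPM per kilobase (SD, n = 3 each).

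All 16 other acetyltransferase genes on the list reached the limit, among them Hat1, which acetylates newly made histone H4, at 67.4 ± 2.72 CPM per kilobase (SD, n = 3). Naa10 was at 24.1 ± 1.79 and Elp3 at 19.9 ± 0.883 CPM per kilobase. Of 28 other bromodomain and YEATS readers, 26 reached it, led by Trim28, the KAP1 corepressor, at 98.8 ± 3.03, Yeats4 at 48.4 ± 1.97 and Smarca4, the BRG1 ATPase, at 43.5 ± 4.37 CPM per kilobase (SD, n = 3 each). Of 10 genes that supply acetyl-CoA, 9 reached it. Dld was at 98.2 ± 1.16, Pdha1 at 66.3 ± 3.04 and Acly, which makes acetyl-CoA from citrate in the nucleus and cytoplasm, at 35.4 ± 3.92 CPM per kilobase (SD, n = 3 each), while Acss1, the mitochondrial acetyl-CoA synthetase, had 0 counts in all 3 libraries.

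In replicate 3 against the other 2 libraries, edgeR called 9 of 35 tested deacetylase partners higher and 16 lower, 7 of 41 acetyltransferase partners higher and 17 lower, and 2 of 16 other acetyltransferases higher and 10 lower, beside 24.8% higher and 26.8% lower over all genes tested. Of the 26 other readers tested, 2 were higher and 17 lower, and of the 9 acetyl-CoA genes 2 were higher and 1 was lower. With the length trend removed, the deacetylase partners had 4 higher and 7 lower, the acetyltransferase partners 6 and 9, the other acetyltransferases 3 and 6, and the other readers 4 and 6. The acetyl-CoA genes then had 1 higher and 2 lower, and over all genes tested the shares were 16.3% higher and 16.0% lower.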

How the data were processed

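RNA-seq counts of 3 libraries of 1 group were used. The authors deposited raw counts per gene, 1 table per sample without a header. Per the submitters' processing notes, bcl2fastq, cutadapt 4.2 and STAR were used with mouse genome mm10. How reads were counted (program, annotation, strand) was not given in the sources used here. Overlapping genes are therefore uncertain. Lengths and positions came from GENCODE M21 (GRCm38), where 23688 of 24467 symbols matched directly and 465 through another symbol. Near-identical copies were sought with blastn at 95% identity over at least 300 bases. CPM used library totals. Intervals from a count of 0 use 3 counts and cover counting error only.

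Libraries were compared in edgeR 4.0.16 (R 4.3.3) with TMM scaling, filterByExpr, which kept 11308 genes and 39 members, and the quasi-likelihood test with Benjamini-Hochberg adjustment at 0.05. The SE is the fold change over the square root of F. The script was tested on simulated data. Alternatives were RLE scaling, library totals, no filter, DESeq2 1.42.0, and a loess trend on length (span 0.3) removed through offsets. Python 3.11.15 with pandas 2.3.3 was used for the rest.

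Members and lists were chosen with earlier results of these data known. Members are named, except that the values of 1 member are not reported here; counts over members include it. Of those called between libraries, the 3 largest rises and falls have values in each library, and of each further list the 3 highest per kilobase and those with 0 counts are named.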

Additional observations from a re-analysis of the deposited data

How the results depend on the processing

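The number of members at 1 CPM or more was 39 at a limit of 0.5 CPM and 37 at 5 CPM, and 39 when each replicate in turn was left out, and the 13 ratios had the same sign under every alternative run: no lengths, the longest transcript, a pseudocount of 0.5 and the omission of each replicate. Depth and replicate number set the limits: 3 libraries cannot give a sign-flip p below 0.25, and the tests between libraries cannot be run without a replicate, since no residual degree of freedom is left. No paired analysis was possible because there is 1 group.

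In replicate 3, members called higher were 6 with TMM scaling, 3 with library totals, 10 with the length trend removed and 1 with DESeq2, and members called lower were 17, 20, 6 and 7. All genes called were 5834 with TMM scaling, 3649 with the length trend removed and 3184 with DESeq2. For replicate 1 they were 9, 4 and 1, and for replicate 2 they were 6, 2 and 1. The other alternatives for these counts were within 1.5 times of the values reported.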
